A study of Homo sapiens with 3 samples.

Results

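Forkhead and SOX genes encode transcription factors, and their RNA levels were measured in 3 libraries of RPE-1 cells. RPE-1 cells derive from human retinal pigment epithelium and keep dividing because they express telomerase. Every protein-coding gene whose symbol consists of FOX, a subfamily letter from A to S and a number, or of SOX and a number, was taken, apart from 1 SOX gene that is not reported here. This gave 62 genes, 44 forkhead and 18 SOX, of the 19951 protein-coding genes and 58735 genes in the deposited count table. The rule for this choice used names and not values, although earlier results of these data were known. All 3 libraries were poly(A)-selected RNA from the same derivative of RPE-1, in which centrin 2 carries GFP to mark centrioles and PLK4 is controlled by rtTA and a doxycycline-responsive promoter. All had received a scramble siRNA, and PLK4 was not induced. They form 1 group (n = 3), so no treated and control groups were compared, and the labels do not say whether the libraries came from separate cultures or whether the line is 1 clone. All p-values between libraries thus refer to the spread among these samples alone, and that spread could be technical.

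Forkhead proteins bind DNA through a winged-helix fold, and SOX proteins bend DNA with an HMG box. Many members act as switches of cell identity in the embryo and are transcribed in a few tissues only. Others, such as the FOXO, FOXK and FOXM proteins, act in metabolism, stress responses and the cell cycle in most tissues. In the eye, FOXC1 and FOXC2 shape the anterior segment, FOXD1 patterns the temporal retina, and SOX2 is needed by retinal progenitors.

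Promoter sequences are shown for pairs of members at opposite ends of the range of levels, to let the base composition of an expressed and a silent relative be compared. FOXD1 was the highest and FOXD3 the lowest member of the FOXD subfamily. SOX12 was the highest of the 18 SOX genes taken, while SOX21 had no counts. Each run covers the 250 bases before the RefSeq start of the gene on GRCh38.p14, printed 5′ to 3′ on the strand of the gene, with CpG dinucleotides in capitals. The windows are chr5:73448778-73449027 (minus strand) for FOXD1, chr1:63322317-63322566 (plus) for FOXD3, chr20:325302-325551 (plus) for SOX12 and chr13:94712546-94712795 (minus) for SOX21.
FOXD1: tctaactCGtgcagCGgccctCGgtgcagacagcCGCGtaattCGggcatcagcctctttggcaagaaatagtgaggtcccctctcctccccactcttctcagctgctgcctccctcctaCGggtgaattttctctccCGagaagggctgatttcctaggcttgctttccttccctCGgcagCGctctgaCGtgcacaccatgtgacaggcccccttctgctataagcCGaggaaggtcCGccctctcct
FOXD3: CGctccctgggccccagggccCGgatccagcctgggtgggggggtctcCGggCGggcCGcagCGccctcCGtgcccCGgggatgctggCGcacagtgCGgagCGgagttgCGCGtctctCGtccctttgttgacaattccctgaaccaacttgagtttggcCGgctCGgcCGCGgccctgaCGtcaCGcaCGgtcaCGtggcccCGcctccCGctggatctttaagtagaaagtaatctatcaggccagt
SOX12: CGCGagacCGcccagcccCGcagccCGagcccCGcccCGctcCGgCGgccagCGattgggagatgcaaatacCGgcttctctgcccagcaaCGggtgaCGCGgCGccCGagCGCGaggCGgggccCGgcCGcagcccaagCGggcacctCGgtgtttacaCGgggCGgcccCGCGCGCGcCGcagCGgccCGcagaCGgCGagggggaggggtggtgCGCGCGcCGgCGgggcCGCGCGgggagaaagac
SOX21: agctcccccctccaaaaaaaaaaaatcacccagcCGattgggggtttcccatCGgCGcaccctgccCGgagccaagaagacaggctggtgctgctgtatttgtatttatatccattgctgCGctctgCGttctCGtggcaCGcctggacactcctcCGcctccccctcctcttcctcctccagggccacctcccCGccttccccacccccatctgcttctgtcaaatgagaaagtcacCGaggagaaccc
CpG dinucleotides numbered 13 for FOXD1, 24 for FOXD3, 42 for SOX12 and 11 for SOX21, so the silent FOXD3 had more of them than the expressed FOXD1, and the order was opposite in the SOX pair.

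The libraries held 46625774 to 60040029 counts. Library 1 stood apart from libraries 2 and 3. The SD of the log2 ratio over 16293 genes was 0.35 between libraries 1 and 2 and 0.35 between 1 and 3, against 0.19 between 2 and 3. Over the 28 forkhead and SOX genes detected, as defined next, these SDs were 0.25, 0.22 and 0.12. The counts of called genes are therefore given without library 1 as well.

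A gene was called detected when it reached a CPM (counts scaled to a common library size, here with TMM factors) of at least 1 in each library. Detection was reached by 28 of the 62 genes, 22 of 44 forkhead and 6 of 18 SOX genes. The share over all protein-coding genes was 57.7%, against 45.2% here. Levels of different genes are compared as RPKM, the CPM per kb of annotated exon. Mean RPKM ranged 508-fold among the detected members, from FOXM1 down to FOXP2. Detection rests on CPM and this order on RPKM, so they can disagree. The 7 members below detection with a mean of at least 10 counts, from FOXD4 (0.438 RPKM) to FOXH1 (0.190), all exceeded FOXP2 (0.173). Their median was 3.37 RPKM, against 6.09 RPKM over the 11508 protein-coding genes detected. In a bulk sample, fewer cells that transcribe a gene and less RNA per cell cannot be told apart. Of the 27 neighbouring pairs in the order of RPKM, 17 had ranges over the 3 libraries that overlapped, and 10 were separate. Overlap of ranges ignores that both genes were measured in the same library. SOX11, for instance, lay above FOXO1 in each library (3.02 against 2.58, 2.39 against 2.07 and 2.61 against 2.11 RPKM), although their ranges overlapped.

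**Figure D1:**
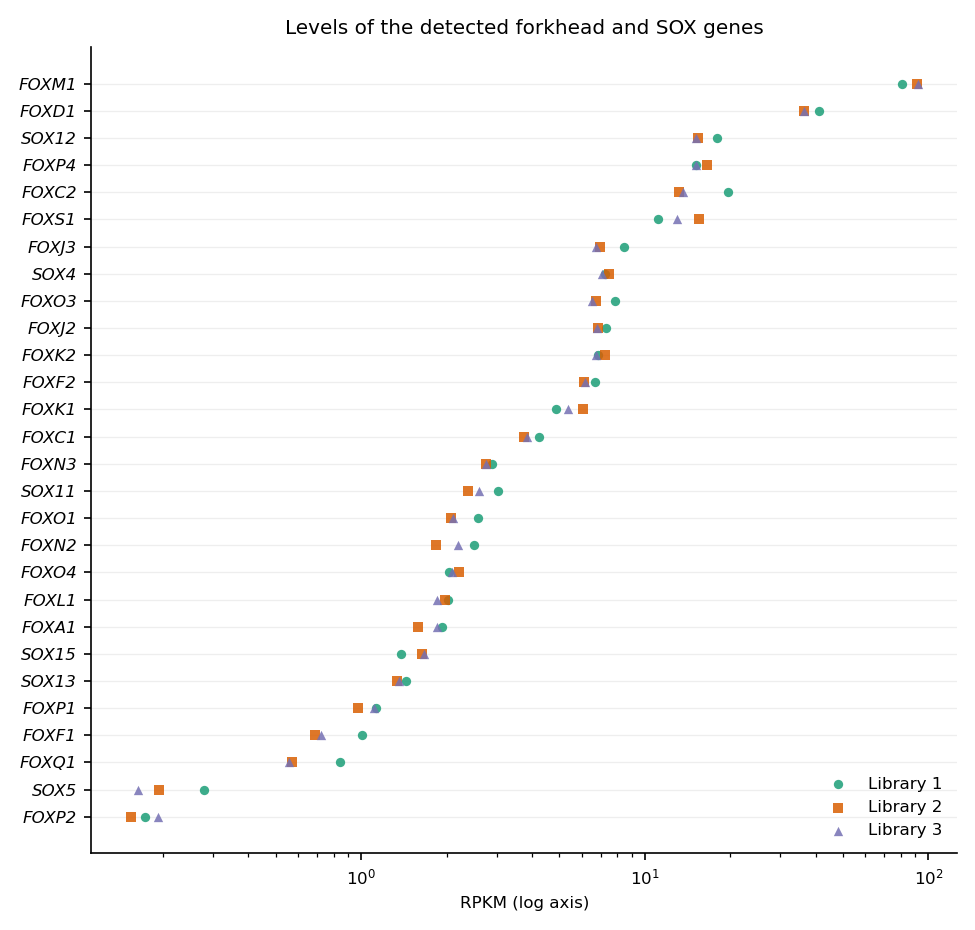
Level of each of the 28 detected forkhead and SOX genes, as RPKM on a log axis, with 1 symbol for each of the 3 libraries and genes ordered by their mean. FOXM1 lies between 80.5 and 91.7 RPKM and FOXD1 between 36.5 and 41.1, apart from all others, while runs such as SOX12, FOXP4, FOXC2 and FOXS1 overlap.

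FOXM1 was the most abundant member. It drives genes of the G2 phase and mitosis together with the MuvB complex. FOXM1 (ENSG00000111206) lies on chromosome 12 from 2857681 to 2877155 on the minus strand. Its levels were 80.5, 91.1 and 91.7 RPKM in libraries 1, 2 and 3 (mean 87.8 ± 6.27 SD, n = 3), higher than 98.2% of protein-coding genes. Library 1 was the low one and libraries 2 and 3 nearly coincided. In CPM the highest library exceeded the lowest by 1.14-fold, a spread beyond counting noise (chi-square test over all genes, adjusted p = 7.48e-47). FOXM1 alone held 37.9 ± 2.85% (SD, n = 3) of the summed RPKM of the 44 forkhead genes. Exons of genes on the opposite strand cover 15.9% of its exon length, and the strand setting of the counting is not given in the sources used here. One of these genes, RHNO1, stood at 85.9, 82.7 and 83.6 CPM and did not share the low value of library 1 (adjusted p = 0.222, chi-square test).

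A list of 25 late cell cycle genes and FOXM1 and MuvB partners was fully detected, with a median of 18.1 RPKM. TOP2A, the mitotic topoisomerase, was the highest at 92.4 ± 9.75 RPKM, and CDC20, the activator of the anaphase-promoting complex, followed at 37.9 ± 7.24 RPKM (SD, n = 3). The spread of 23 of the 25 exceeded counting noise, and 20 of these were lowest in library 1, as FOXM1 was. Over all genes tested, 68.6% were called and 33.4% were called and lowest in library 1. Over detected protein-coding genes these shares were 77.5% and 39.6%. Without library 1, 11 of the list were called, and with the common coefficient of variation from edgeR added to the chi-square test, 0 (0 also at an unadjusted p under 0.05). The shares of all genes tested that were called in these settings were 28.1% and 4.32%. LIN37, a MuvB subunit, had the widest called ratio of the list, with 3.79, 5.96 and 5.04 CPM.

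The FOXO proteins, which are held in the cytoplasm by AKT and activate stress and cell cycle arrest genes in the nucleus, were expressed from 3 of 4 genes. FOXO3 stood at 7.82, 6.74 and 6.54 RPKM, FOXO1 at 2.58, 2.07 and 2.11, and FOXO4 at 2.04, 2.21 and 2.09. FOXO3 exceeded FOXO1 by 3.13-fold per unit of exon length, with a log2 ratio of 1.65 ± 0.05 (SD, n = 3) that was positive in 3 of 3 libraries. It exceeded FOXO4 by 3.31-fold, or 7.43-fold without length. FOXO3 and FOXO1 were highest in library 1 (adjusted p = 2.85e-11 and 3.47e-05, chi-square test), whereas the spread of FOXO4 did not exceed counting noise (adjusted p = 0.577). Reads of FOXO3 may be divided with FOXO3B, a processed pseudogene that had 75, 104 and 68 counts.

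FOXO6, the FOXO gene best known from brain, showed the sharpest difference between libraries. It had 0 counts in library 1 and 50 and 40 counts in libraries 2 and 3, or 0.823 and 0.855 CPM. With 0 counts, library 1 could still hold up to 3, which is 0.0618 CPM, so the levels in libraries 2 and 3 were at least 13.3-fold and 13.8-fold higher (counting error only). The chi-square test gave an adjusted p of 5.59e-09. Without library 1 it was not called. Counts in libraries 2 and 3 with none in library 1 were found in 100 of the 16293 genes tested (0.614%). Over all 58735 genes, tested or not, 2785 had this form. Only 261 had no counts in library 2 alone, and 560 had none in library 3 alone. Library 1 also had counts for fewer genes, 19953 against 24416 and 23050 in libraries 2 and 3. IGFBP1, a FOXO target, shared the form of FOXO6, with 0, 24 and 12 counts. FOXP3 and SOX6 had the same form with very few counts, 0, 2 and 3 each, and were not tested.

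All 24 genes of a list of FOXO regulators were detected, with a median of 10.6 RPKM, and 22 were called (91.7%). Among all genes tested 68.6% were called, and among detected protein-coding genes 77.5%. For the list, the count was 14 without library 1, and 0 in the chi-square test with the edgeR coefficient of variation added (1 at an unadjusted p under 0.05). The shares of all genes tested that were called in these settings were 28.1% and 4.32%. YWHAQ (199 ± 15.7 RPKM) and YWHAE (170 ± 8.23), which encode 14-3-3 proteins that bind phosphorylated FOXO, were the highest. SGK1, a kinase that phosphorylates FOXO, had the widest ratio, with 100.1 CPM in library 1 against 57.7 and 63.8. Of 23 FOXO target genes 16 were detected, with a median of 12.9 RPKM. Of 18 tested, 15 were called (83.3%, against the same 68.6% of all genes tested). The count was 10 without library 1 and 1 with the edgeR coefficient of variation added. CDKN1A, the inhibitor p21, led at 697 ± 53.9 RPKM, followed by GADD45A at 71.1 ± 4.18 RPKM. Among targets with counts in each library, BCL6 had the widest called ratio, with 32.4, 21.1 and 17.7 CPM. The targets G6PC, PCK1, PDK4 and FASLG had 0 counts in every library.

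The FOXK, FOXJ and FOXN subfamilies had summed levels of 12.4, 14.35 and 4.975 RPKM (mean, n = 3), below the 38.7 RPKM of the FOXD subfamily. FOXK1 and FOXK2, repressors of autophagy genes, stood at 5.42 ± 0.598 and 6.94 ± 0.263 RPKM (SD, n = 3). FOXK1 had 4.85, 6.04 and 5.37 RPKM and FOXK2 had 6.86, 7.24 and 6.73, so library 2 was the high one for both. Their log2 ratio, FOXK2 to FOXK1, was 0.36 ± 0.12, but -0.03 when length was left out and 1.06 with the longest transcript as length, and the annotated exons of FOXK1 sum to 13093 bases. Exons on the opposite strand cover 14.1% of FOXK2, and its overlapping neighbour WDR45B had 82.7, 94.6 and 95.8 CPM. FOXJ3 and FOXJ2 stood at 7.36 ± 0.957 and 6.97 ± 0.262 RPKM and could not be ordered, since their ratio had both signs over the 3 libraries (log2 0.22, 0.02 and -0.02). FOXJ1, the regulator of motile cilia from the same subfamily, had 5, 2 and 0 counts. FOXN3 reached 2.80 ± 0.0787 RPKM and FOXN2 2.18 ± 0.329, a ratio of 1.29-fold, or 2.61-fold without length. FOXN1, the regulator of thymic epithelium, had no counts, and FOXN4, a gene of retinal progenitors, had 0, 2 and 0.

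FOXP proteins are repressors that dimerise through a leucine zipper. FOXP4 stood at 15.2, 16.5 and 15.1 RPKM, and FOXP1 and FOXP2 at 1.07 ± 0.0845 and 0.173 ± 0.0190 RPKM. FOXP4 thus exceeded FOXP1 by 14.6-fold, but by 2.45-fold without length and 3.71-fold with the longest transcript in place of all exons. Annotated exons of FOXP1 sum to 36714 bases. FOXP1 exceeded FOXP2 by 6.19-fold per unit of length, or 14.1-fold without it. FOXP3, the regulator of regulatory T cells, had 0, 2 and 3 counts.

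Among forkhead genes of embryonic patterning, FOXD1 was the highest. It marks kidney stroma and the temporal retina. FOXD1 (ENSG00000251493) lies on chromosome 5 from 73444827 to 73448527 on the minus strand. Its levels were 41.1, 36.5 and 36.5 RPKM (mean 38.0 ± 2.66 SD, n = 3), with library 1 above the others (adjusted p = 9.96e-11, chi-square test). Exons on the opposite strand cover 16.2% of FOXD1. FOXD1 exceeded FOXD2 by 179-fold per unit of exon length (log2 7.48 ± 0.45 SD), or by 100.5-fold without length. FOXD2 had 0.742, 1.17 and 1.09 CPM and lay just under the threshold of detection in library 1 alone. FOXD4 had 0.927, 0.708 and 0.962 CPM, and a mean of 0.438 RPKM against 0.214 for FOXD2, although its reads may be divided with near-identical copies, of which FOXD4L1 had 8, 16 and 9 counts. FOXD3, a gene of neural crest, had no counts.

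FOXC2, FOXF1 and FOXL1 lie within 71634 bases on chromosome 16, and FOXQ1, FOXF2 and FOXC1 within 301458 bases on chromosome 6. All 6 were detected. The only other members within 500 kb of each other, FOXE3 and FOXD2 on chromosome 1, were below detection. Of the 54 members outside these clusters 22 were detected. On chromosome 16, FOXC2 (86566829 to 86569728) stood at 15.5 ± 3.65 RPKM, FOXL1 (86576368 to 86582160), a gene of gut mesenchyme, at 1.95 ± 0.0911 and FOXF1 (86510527 to 86515418), a mesenchymal target of Hedgehog signalling, at 0.805 ± 0.172 RPKM. On chromosome 6, FOXF2 (1389576 to 1395603) stood at 6.32 ± 0.318, FOXC1 (1609972 to 1613897) at 3.94 ± 0.257 and FOXQ1 (1312440 to 1314748) at 0.655 ± 0.159 RPKM (SD, n = 3). The clusters on chromosomes 16 and 6 thus each had 1 member of the FOXC and 1 of the FOXF subfamily. The higher FOXC gene and the higher FOXF gene lay in different clusters. FOXC2 exceeded FOXC1 by 3.88-fold and FOXF2 exceeded FOXF1 by 7.93-fold, each in 3 of 3 libraries.

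FOXC2 had the widest called ratio among members above 40 CPM in a library, with 57.2, 38.4 and 39.4 CPM (adjusted p = 1.82e-54, chi-square test). FOXC2-AS1, which overlaps it on the opposite strand, was also highest in library 1, at 1.01, 0.609 and 0.534 CPM (adjusted p = 0.0177, chi-square test). The shared exons cover 5% of FOXC2, and without a stated strand setting reads of the 2 genes cannot be told apart there. Libraries 2 and 3 alone showed no call for FOXC2. FOXF1 (3.52, 2.42 and 2.54 CPM) and FOXQ1 (1.94, 1.32 and 1.28 CPM) also had library 1 as the high one and were called, at lower counts. FOXF2 and FOXL1 were not called, with ratios of highest to lowest CPM of 1.09 and 1.10, and FOXC1 was called with 1.13 (adjusted p = 0.0477, chi-square test), though not with libraries scaled by total counts.

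FOXS1, described in pericytes, was instead lowest in library 1, with 14.7, 20.4 and 17.2 CPM (13.2 ± 2.17 RPKM). FOXA1, a pioneer factor of endoderm and hormone-responsive epithelia, stood at 1.79 ± 0.172 RPKM (SD, n = 3), with 7.64, 6.34 and 7.35 CPM. FOXA2 had no counts, so FOXA1 was at least 75.0-fold higher per unit of length, with a floor of 3 counts per library. FOXL2, the ovarian factor, had 30, 33 and 34 counts, FOXE1, the thyroid factor, had 23, 52 and 32, and FOXH1, a SMAD partner, had 31, 27 and 16. All 3 lay below detection, and 31.6% of the exon length of FOXH1 is covered by exons on the opposite strand.

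Among the 18 SOX genes taken, the SOXC subfamily, factors of neural and mesenchymal progenitors, held most of the summed level. SOX12, SOX4 and SOX11 together held 88.3 ± 0.648% (SD, n = 3) of the summed RPKM of the 18 SOX genes. SOX12 (ENSG00000177732, chromosome 20, 325595 to 330224) had 18.01, 15.4 and 15.2 RPKM, with library 1 high (adjusted p = 5.12e-15, chi-square test). SOX4 (ENSG00000124766, chromosome 6, 21592768 to 21598619) had 7.27, 7.50 and 7.06 RPKM, and its spread did not exceed counting noise (adjusted p = 0.17). SOX11 (ENSG00000176887, chromosome 2, 5692667 to 5701385) had 3.02, 2.39 and 2.61 RPKM and was called (adjusted p = 4.60e-08). SOX12 exceeded SOX4 by 2.22-fold and SOX4 exceeded SOX11 by 2.73-fold, each in 3 of 3 libraries.

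The SOXD genes, whose proteins lack an activation domain of their own, were low. SOX13 stood at 1.38 ± 0.0515 RPKM and SOX5 at 0.212 ± 0.0593 RPKM (SD, n = 3), while SOX6 had 0, 2 and 3 counts. SOX5 was highest in library 1, with 2.90, 2.02 and 1.71 CPM (adjusted p = 0.000466, chi-square test). SOX15, the only SOXG member, had 1.38, 1.63 and 1.66 RPKM. SOX2, a factor of pluripotent and neural progenitor cells, fell below detection with 0.824, 0.527 and 0.342 CPM. Its counts were 40, 32 and 16, and it was, beside FOXO6, the only member called with a ratio of at least 2 (2.41-fold, adjusted p = 0.0110, chi-square test). The call was lost without library 1 and without library 3. Over all genes tested, 9.3% had counts in every library, reached that ratio and were called.

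Of the 34 members below detection, 7 had a mean of at least 10 counts, namely FOXD2, FOXD4, FOXE1, FOXH1, FOXL2, FOXO6 and SOX2. A further 9 had a few counts, at most 14 in a library. They were FOXA3 (0, 0 and 1), FOXB1 (4, 1 and 0), SOX18 (0, 3 and 0), SOX7 (6, 14 and 7), SOX30 (5, 7 and 2) and the FOXJ1, FOXN4, FOXP3 and SOX6 genes given above. The remaining 18 had 0 counts in every library. Among them were the lens gene FOXE3, FOXA2, FOXB2, FOXD3, FOXN1, and all FOXI and FOXR genes (FOXI1, FOXI2, FOXI3, FOXR1, FOXR2). Of the SOX genes, SOX1, SOX3, SOX14 and SOX21 of the SOXB group, SOX8 and SOX10 of the SOXE group, which act in neural crest and glia, and SOX17, the endoderm gene, had none.

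**Figure D2:**
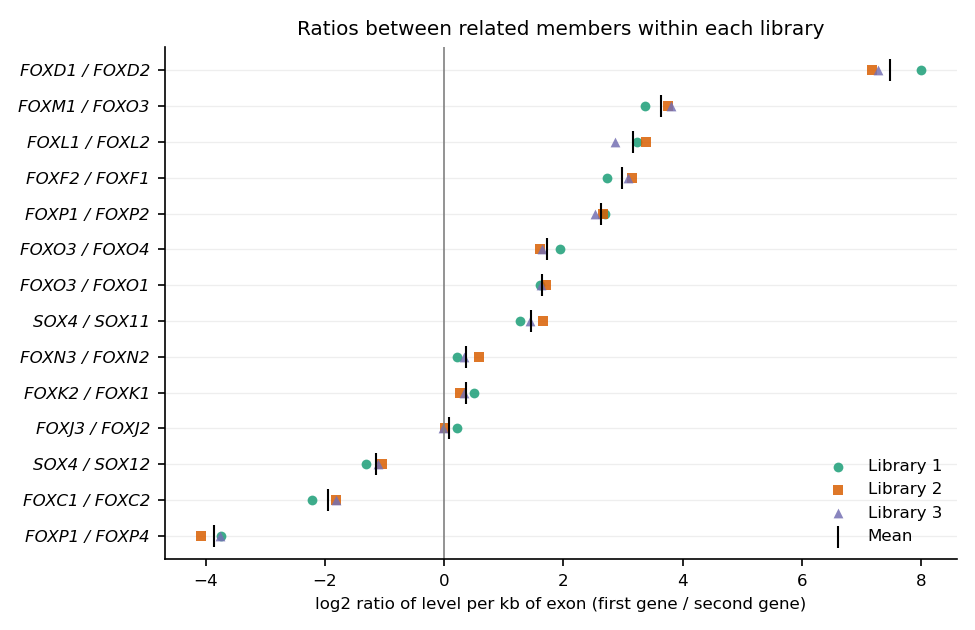
Log2 ratio of the level per kb of exon between related members, with 1 symbol for each of the 3 libraries and a bar for their mean. The ratio keeps its sign in all 3 libraries for 13 of the 14 pairs, and FOXJ3 to FOXJ2 is the pair that lies at 0.

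Of 21 pairs of related members, 14 had enough counts in both genes for a ratio. In 13 of these the same gene was higher in 3 of 3 libraries, and the SD of the log2 ratio was 0.05 to 0.45. With 3 libraries the two-sided exact sign-flip test cannot go below p = 0.25, the value these 13 pairs reached (0.269 after Benjamini-Hochberg adjustment over the 14 pairs), so none could pass a threshold of 0.05. FOXM1 exceeded FOXO3, with which it is often set in contrast as a factor of proliferation against arrest, by 12.5-fold (7.93-fold without length). Its lowest ratio was in library 1 (log2 3.36, against 3.76 and 3.81).

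Spread between libraries was tested for the 35 members with a mean count of at least 10. The spread of 21 (60%) exceeded counting noise, against 68.6% of the 16293 genes tested, the background used below. Over the protein-coding genes tested the share was 73.7%. Among detected genes, 19 of 28 members (67.9%) were called, against 77.5% of protein-coding genes. Whether these shares differ by more than the small number of members allows was not tested. Library 1 was the highest for 15 of the 35 (42.9%, background 27.9%) and the lowest for 4 (11.4%, background 33.4%) among called members. For 14 called members library 1 was the farthest from the other libraries (40%, background 45.6%). The 4 lowest in library 1 were FOXM1, FOXK1, FOXS1 and FOXO6. The 6 members still called from libraries 2 and 3 alone were FOXK1, FOXK2, FOXN2, FOXP1, FOXP4 and FOXS1 (16.7% of 36 tested, background 28.1%). Without library 2 the count was 15 of 35 (background 56.8%), and without library 3 it was 23 of 36 (background 60.6%). With an extra coefficient of variation of 0.05 for each gene, 10 members were called (background 32.7%). With one equal to the common value from edgeR, 0.135, only FOXO6 was called (background 4.32%). The median ratio between the extreme libraries was 1.23 over the 34 tested members with counts in each library, against 1.246 over all such genes.

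**Figure D3:**
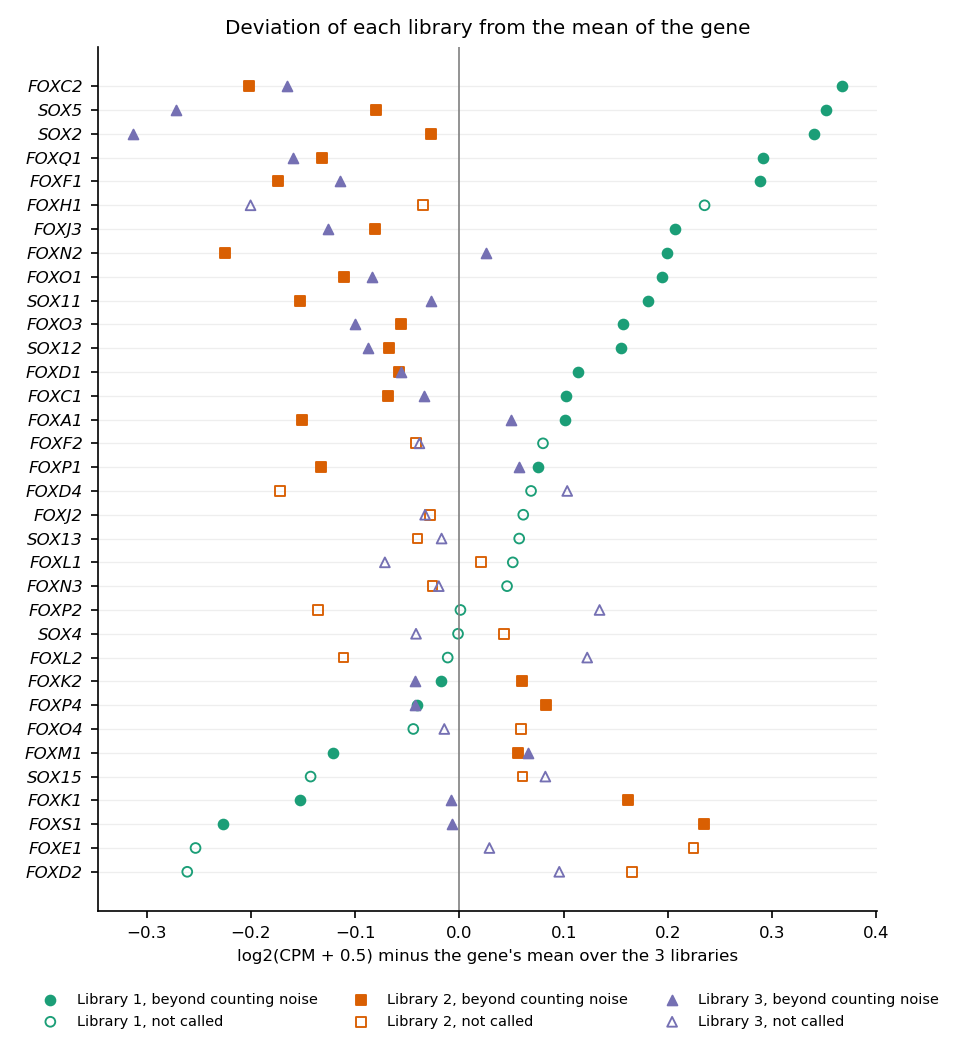
Deviation of each library from the gene's mean, in log2(CPM + 0.5), for the 34 tested members with counts in every library, ordered by library 1. Filled symbols mark genes whose spread exceeded counting noise. Library 1 lies to the right for genes such as FOXC2 and SOX5 and to the left for FOXM1, FOXK1 and FOXS1.

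**Figure D4:**
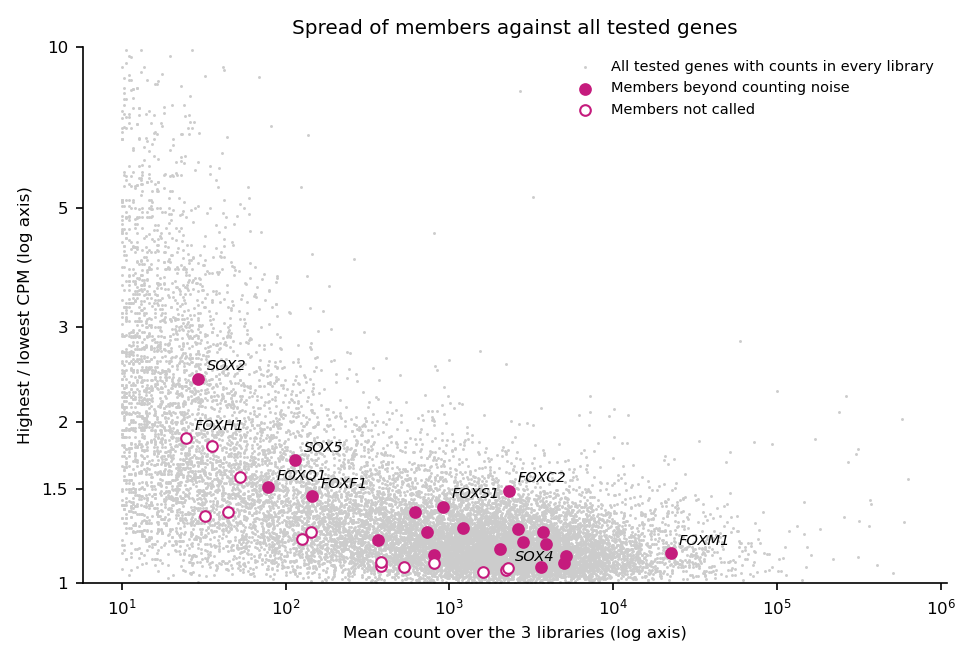
Ratio of the highest to the lowest CPM against the mean count, both on log axes, for all tested genes with counts in every library (grey) and for the 34 such members (coloured). 53 genes above a ratio of 10 are not drawn. The members lie within the range of other genes of like count, with SOX2 at 2.41 and FOXC2 at 1.49.

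Among the partners and relatives of SOX proteins, 13 of 18 genes were detected, with a median of 3.56 RPKM. Of 13 tested, 11 were called (84.6%), against 68.6% of all genes tested and 77.5% of detected protein-coding genes. The count of 11 fell to 5 without library 1 (background 28.1%) and to 1 with the edgeR coefficient of variation added (background 4.32%). The HMG-box genes HMGB2 (99.5 ± 2.40 RPKM) and HMGB1 (54.2 ± 3.80) were the highest. TCF7, an HMG-box factor of WNT signalling, had the widest ratio, with 26.7 CPM in library 1 against 12.9 and 14.8. POU5F1 and POU3F3, which encode POU partners of SOX proteins, and the neuronal gene DCX had 0 counts in every library.

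Of the 22 members in which every protein-coding transcript has 1 exon, 8 were detected (36.4%), against 18.2% of the 1031 single-exon protein-coding genes. Those 1031 genes were not matched to the members by kind of gene, and 638 of them had 0 counts in every library, against 9 of the 22 members. Among the 40 members with introns 20 were detected (50%), against 60.7% of the 18657 protein-coding genes with introns. The single-exon members include FOXD1, SOX12, FOXC2, FOXS1 and SOX4. Thus 5 of the 8 highest members by RPKM have no introns in their coding transcripts. The cut at 8 falls on SOX4, and FOXO3, FOXJ2, FOXK2, FOXF2 and FOXK1, which follow it in this order, have introns. This order depends on exon length. Without length, FOXK1, FOXK2 and FOXO3, which have introns, had mean CPM of 71.0, 69.4 and 54.3. They then stood above FOXC2 (45.0), SOX4 (42.6) and FOXS1 (17.4).

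RefSeq promoter windows were at hand for 43 members, 20 detected and 23 below detection. The median number of CpG dinucleotides in the 250 bases before the start was 27 in detected members and 17 in the others, with 18 over 14900 protein-coding genes. The ratio of observed to expected CpG exceeded 0.6 in 17 of 20 detected members, in 17 of 23 others (73.9%) and in 64.2% of all these genes. The letters TATAAA, read on both strands, were found in 0 of 20 detected members, in 4 of 23 others (FOXA3, FOXP3, FOXR2 and SOX21) and in 8.97% of all. The forkhead core GTAAACA, read on both strands, was found in SOX12 alone of the 43 members, from base 153 of the sequence above as its reverse complement, and in 2.27% of all. The letters ACAATG, taken here as the SOX core, were found on either strand in 4 members, FOXJ3, FOXP2, SOX5 and FOXO4, and in 6.61% of all. Forkhead or SOX sites spelled otherwise were not counted. For genes with several RefSeq starts only the first listed was read.

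Genes that overlap a member or lie within 5 kb of one numbered 110, of which 20 were detected and 55 had 0 counts. FXR2, 1059 bases from SOX15, was lowest in library 1 as SOX15 was, with 76.4, 89.1 and 88.8 CPM, although the spread of SOX15 did not exceed counting noise (adjusted p = 0.343, chi-square test). CCDC22 and POLR2F, which overlap the near-silent FOXP3 and the silent SOX10, were detected at 11.8 to 18.9 CPM and 47.4 to 50.8 CPM.

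Markers of the labelled cell type were partly present. Of 10 pigment epithelium markers 5 were detected, among them OTX2 (5.47 ± 0.239 RPKM) and MITF (3.05 ± 0.253 RPKM), while RPE65 had 8, 6 and 0 counts and TYR and DCT had 0. All 7 mesenchymal markers were detected, with a summed level of 2265 to 2340.2 RPKM against 10.3 to 10.9 RPKM for the pigment epithelium list. VIM (1518 ± 64.2 RPKM) and FN1 (570.4 ± 12.9) carried most of that sum, while TWIST1 (13.03 ± 0.119), PRRX1 (7.02 ± 0.479) and TWIST2 (5.13 ± 0.674) were the lowest of the 7. Of the other lists, 3 of 7 neural markers were detected (summed level 5.09 to 7.17 RPKM, with ELAVL4, DCX and STMN2 at 0), 2 of 7 of neural crest and glia (7.39 to 8.99 RPKM) and 2 of 7 of endoderm (3.68 to 4.35 RPKM, with GATA4, CDX2 and CXCR4 at 0). For endothelium 1 of 6 was detected (0.407 to 0.566 RPKM), for lymphocytes 1 of 5 (0.167 to 0.344 RPKM, with CD3E and IL2RA among those at 0) and for multiciliated cells 1 of 5 (1.10 to 1.29 RPKM, with RSPH1 and TEKT1 at 0).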

How the data were processed

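The deposited table gives whole-number counts of reads per gene, not normalised, for each library. The authors' tools named in the submitters' processing notes are cutadapt 1.16, STAR 2.5.2a and featureCounts 1.6.2 with the hg38 build, per these notes. Settings, annotation, strandedness and the handling of multi-mapping reads: not given in the sources used here. Another 6 count columns, whose names match none of the labels, were left aside. All 58735 gene identifiers matched GENCODE release 29 (99.5% of symbols equal), which gave positions and the union of exons for RPKM. TMM factors (edgeR 4.0.16, R 4.3.3) were 0.985, 1.01 and 1.00. The upper limit for a 0 was 3 counts. The main test was a chi-square test of each gene's 3 counts against the TMM-scaled totals, with 2 degrees of freedom, for 16293 genes (mean count 10 or more), with p-values adjusted over all of them by Benjamini-Hochberg and a threshold of 0.05. On counts simulated with counting noise alone, it called 62% of genes raised 1.25-fold and 83% of genes raised 2-fold in 1 library. Of unchanged genes it called 0.0435%, among 16293 genes. The real libraries vary more (common coefficient of variation from edgeR 0.135), so these rates do not carry over to them. Ratios between members used a pseudocount of 0.5 count. Alternatives were DESeq2 1.42.0 size factors, total counts, other minima, no length, the longest transcript, an added coefficient of variation and leaving out each library. Every detected member was named, and the others by their counts; from each related list the 2 highest detected genes, the called gene with the widest ratio between libraries (where all had counts) and those without counts were named, with at most 1 neighbour per detected member, the one with the most counts. FOXC2-AS1, FOXO3B, FOXD4L1, CCDC22, POLR2F and IGFBP1 fall outside this rule and were picked with their values in view. The members, lists and pairs were chosen with earlier results of these data known, so none is independent support. SOD2 had no single match in the table and was left out of its list. 1 SOX gene and some other genes are not reported by name here.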

Additional observations from a re-analysis of the deposited data

How the results depend on the processing

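The number of members detected was 28 with TMM, DESeq2 size factors and total counts, 28 to 29 when each library was left out in turn, 31 with a CPM of at least 0.5, 29 with a mean CPM of at least 1 and 26 with an RPKM of at least 0.5. The number of members whose spread exceeded counting noise was 21 with TMM and with DESeq2 size factors (the same 21 genes), 19 with total counts (without FOXA1 and FOXC1), 20 and 19 with a mean count of at least 1 and of at least 50, and 6 to 23 when each library was left out in turn, with 6 without library 1. It was 10 with an extra coefficient of variation of 0.05 and 1 with the common value from edgeR; both allow more spread by construction. The log2 ratio of FOXK2 to FOXK1 was -0.0274 without length, and that of FOXJ3 to FOXJ2 ran from -0.000807 (without library 1) to 0.119 (without library 3); the other 12 ratios kept their sign under every setting run. The FOXM1 share of summed forkhead RPKM was 42.6% with the longest transcript as length, and the SOX12 share of summed SOX RPKM (54.7% as reported) was 47.9% without length and 51.6% with the longest transcript; length is what differs between these settings. No paired analysis was possible because only 1 group of 3 libraries had labels. Counts limit the 9 members with a few counts and the 18 with none, which were not tested, and the 7 tested members below detection, whose ratios rest on 16 to 71 counts a library apart from the 0 of FOXO6.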
